A study of Homo sapiens with 6 samples.

Results

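Amino acid transporter genes were examined in 6 human prostate cancer cell lines, 3 castration-sensitive and 3 castration-resistant. The 10 genes, of 16222 genes tested, were taken by symbol: SLC43A1, SLC43A2, SLC7A5, SLC7A8, SLC3A2, SLC7A11, SLC1A4, SLC1A5, SLC38A1 and SLC38A2. All 10 were found as 1 entry each and all 10 passed the filter on low values. The set was chosen by measured values: SLC43A1 was lower in the resistant line of all 3 pairs. Differences between the states are given below as a description, with no test.

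The sensitive lines were LNCaP (LnCaP in the labels), VCaP and LAPC4, and their resistant counterparts were LNCaP-abl, VCaP-CR and LAPC4-CR. Of the sensitive lines, VCaP was kept in DMEM and the other two in RPMI, all with 10% fetal bovine serum. The resistant lines were all kept in RPMI containing 10% serum that had been stripped with charcoal, which removes steroids, together with B27 supplement at 1X, and no line had any further treatment. Medium and state therefore differed together and cannot be told apart; for VCaP the basal medium differed too. Each line gave 1 library of total RNA, and the labels do not say whether a resistant line is a clone.

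Cells take up leucine and other large neutral amino acids through several kinds of carrier. LAT1 (SLC7A5) and LAT2 (SLC7A8) exchange one amino acid for another and reach the cell surface only when bound to the heavy chain 4F2hc (SLC3A2). LAT3 (SLC43A1) and LAT4 (SLC43A2) carry some of the same substrates, leucine among them, down their gradient without a heavy chain. In prostate, LAT3 is known as an androgen-regulated gene, and leucine entering by these routes activates the growth kinase complex mTORC1. xCT (SLC7A11), also bound to 4F2hc, imports cystine for glutathione. ASCT1 (SLC1A4) and ASCT2 (SLC1A5) exchange small neutral amino acids, ASCT2 with glutamine as its best known cargo, and the sodium-driven SNAT1 (SLC38A1) and SNAT2 (SLC38A2) load the cell with glutamine and other substrates that LAT1 then exchanges.

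Total counts lay between 8661337 and 22433655 per library, with more counts in the resistant member of every pair. Levels are given as scaled FPKM, which is the deposited FPKM (counts scaled by gene length and library total) divided by a factor per library (0.847 to 1.11). The median tested gene stood at 4.54 to 4.83 scaled FPKM. KLK3, the androgen-driven gene of prostate-specific antigen, was at 610, 328 and 108 in LNCaP, VCaP and LAPC4 and at 0.649, 19.1 and 2.02 in their resistant counterparts. ERG, which a gene fusion activates in VCaP, stood at 16.9 there, at 5.46 in VCaP-CR and at most 0.186 elsewhere. All 8 luminal epithelial markers reached 1 scaled FPKM in all 6 libraries, with sums of 401 to 925. Leukocyte markers (5) summed to 1.55 to 3.27 and endothelial markers (3 of 4 listed) to 0.606 to 2.31. The 4 basal markers summed to 3.20 to 8.29 in 5 libraries and 16.9 in LAPC4-CR, nearly all of it ITGB4 (14.7). The 6 stromal markers summed to 1.89 to 5.28 in 5 libraries and to 51.7 in VCaP-CR, of which LUM made up 50.2. Of the markers, 0 were at 0 counts in any library, and their part in the results was not tested.

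SLC43A1 (ENSG00000149150, chromosome 11, 57008583 to 57039835 in hg18) was the member whose states stood apart. Its level was 17.6 scaled FPKM in LNCaP, 8.30 in VCaP and 5.85 in LAPC4, against 0.215 in LNCaP-abl, 3.60 in VCaP-CR and 0.387 in LAPC4-CR. All 3 resistant libraries were below all 3 sensitive ones, and the lowest 2, LAPC4-CR and LNCaP-abl, were the neighbours in the order whose counting intervals overlapped. LNCaP-abl held 9 reads of the gene (95% Poisson interval 4.1 to 17.1) where LNCaP held 577 (530.9 to 626.1). LAPC4-CR held 34 (23.5 to 47.5) and LAPC4 267 (235.9 to 301.0). These intervals, and all others below, cover counting error only.

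In ratio, SLC43A1 was 81.9-fold lower in LNCaP-abl than in LNCaP (95% counting interval 42.8 to 180). It was 15.1-fold lower in LAPC4-CR (10.6 to 22.3) and 2.31-fold lower in VCaP-CR (1.92 to 2.77). On the log2(scaled FPKM + 1) scale, which is used for all changes below and understates those of low genes, the mean change was -2.42 ± 1.46 (SD, n = 3 pairs). Among all tested genes, 0.0986% were at least 2-fold lower on that scale in all 3 pairs, and in 3.21% the 3 resistant libraries were all below the 3 sensitive ones. No member was at least 2-fold higher in all 3 pairs (0.0616% of tested genes) or had all resistant libraries above the sensitive ones (3.45%). In the VCaP pair the change, -1.02, was just past 2-fold. With a pseudocount of 5 in place of 1 it was -0.63. The gene stood at the 84.0th percentile of tested genes in LNCaP and at the 1.8th in LNCaP-abl. In a cell line, fewer cells making an RNA and less of it per cell cannot be told apart.

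**Figure D1:**
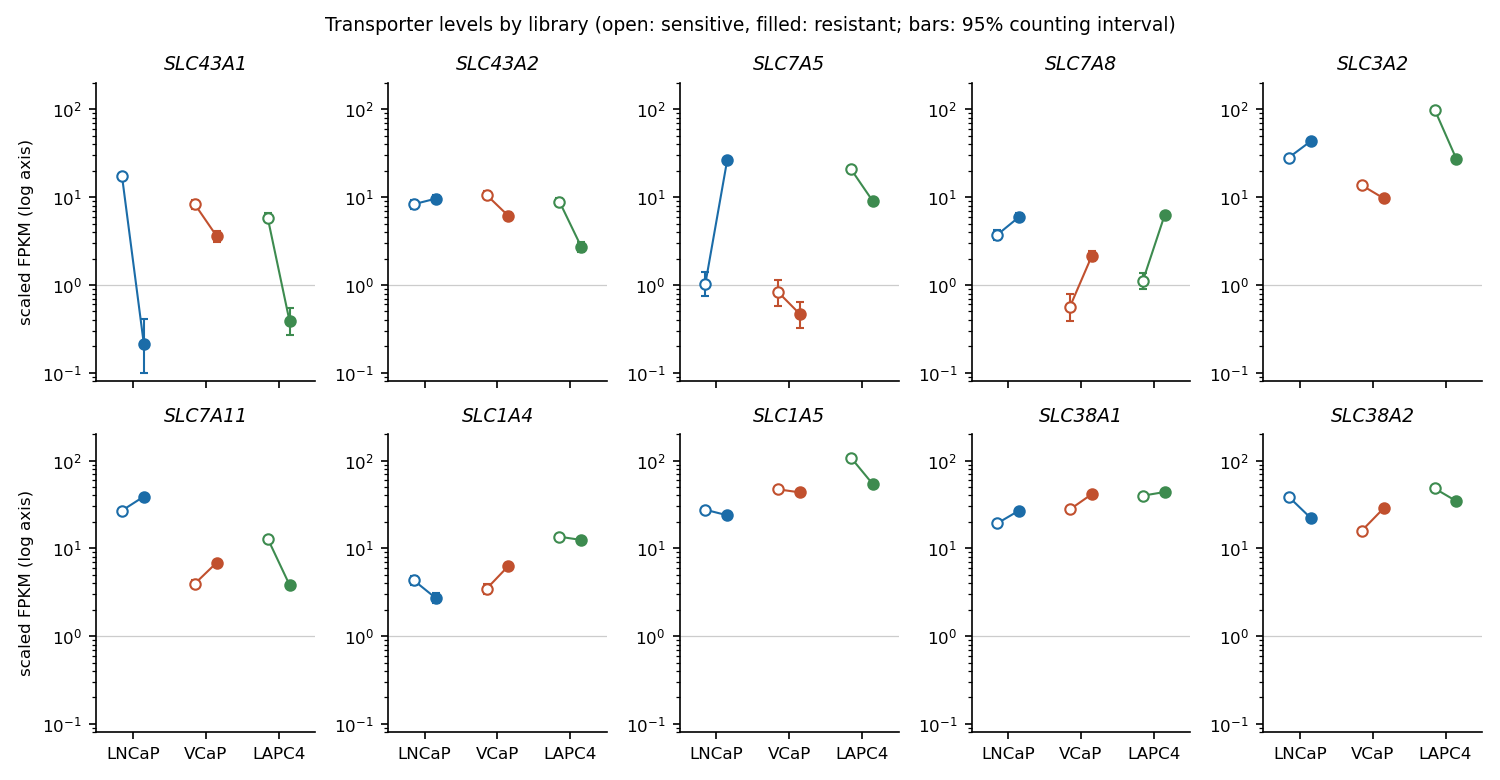
Scaled FPKM (log axis) of the 10 transporter genes in the sensitive (open) and resistant (filled) library of each pair, with 95% counting intervals. SLC43A1 is lower in all 3 resistant libraries, SLC7A5 goes from 1.04 to 26.7 in the LNCaP pair, and SLC7A8 is higher in all 3 resistant libraries.

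RefSeq lists 2 transcription starts for SLC43A1. The stretches from 250 bases before to 30 bases after each are shown because this gene had the largest ratio of highest to lowest library. That ratio was 81.9, with 9 reads in the lowest library, and SLC7A5 came next at 57.6. The strand is minus and the build GRCh38.p14, which is not that of the counts.
SLC43A1 chr11:57515673-57515952: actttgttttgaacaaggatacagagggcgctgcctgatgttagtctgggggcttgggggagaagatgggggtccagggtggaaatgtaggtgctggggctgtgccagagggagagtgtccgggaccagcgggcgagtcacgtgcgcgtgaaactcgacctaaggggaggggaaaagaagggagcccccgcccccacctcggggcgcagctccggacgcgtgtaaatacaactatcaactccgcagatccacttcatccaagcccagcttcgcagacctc
SLC43A1 chr11:57514880-57515159: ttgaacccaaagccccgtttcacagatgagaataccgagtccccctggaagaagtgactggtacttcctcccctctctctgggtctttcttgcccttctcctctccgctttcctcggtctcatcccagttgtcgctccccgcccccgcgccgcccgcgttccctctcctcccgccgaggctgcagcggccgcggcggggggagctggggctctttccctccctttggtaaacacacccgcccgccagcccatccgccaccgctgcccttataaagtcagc
Windows of 300 bases, reaching 50 bases past each start, were searched on both strands for TGTTCT, the half-site of the androgen receptor, for TGATGNAA, the core of the amino acid response element bound by ATF4, and for TGACNNNGC, the core of the antioxidant response element. Neither SLC43A1 window held any of them, so no letters are in capitals. Of all 35116 such windows, 14.8%, 3.62% and 13.3% held the 3 motifs. Of 21 windows of 9 members (SLC7A11 had none listed), 1, 4 and 3 held them. A match describes letters only.

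SLC43A2, the closest relative of SLC43A1, did not share its pattern. LNCaP and LNCaP-abl stood at 8.32 and 9.62 scaled FPKM, VCaP and VCaP-CR at 10.6 and 6.12, LAPC4 and LAPC4-CR at 8.92 and 2.72. In the LNCaP pair the ratio of SLC43A2 was 1.16, and its counting interval (0.983 to 1.36) included no change. In the other pairs LAT4 was lower in the resistant line, by log2 changes of -0.71 and -1.42. LNCaP, LNCaP-abl, VCaP and LAPC4 lay close together, between 8.32 and 10.6, and the states overlapped. The pseudogene AC130343.1, which lies within the gene, had 51 to 139 reads against 221 to 377 for SLC43A2.

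SLC7A5 (ENSG00000103257, chromosome 16, 86421123 to 86460626 in hg18), which encodes LAT1, differed in opposite directions between lines. It was at 1.04 scaled FPKM in LNCaP (44 reads) and 26.7 in LNCaP-abl (1444 reads), a ratio of 25.7 (19.1 to 35.5). In the LAPC4 pair it was at 20.7 and 8.95, 2.31-fold lower in the resistant line (2.13 to 2.52). In VCaP it was at 0.827 and in VCaP-CR at 0.463, on 37 and 34 reads. High levels were thus found in LNCaP-abl, LAPC4 and LAPC4-CR and low ones in LNCaP, VCaP and VCaP-CR, and the states overlapped. The log2 change of 3.76 in the LNCaP pair was at the 99.78th percentile of all tested genes. The near-identical pseudogene SLC7A5P2 had 0 to 7 reads per library, so few reads were assigned to that copy.

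SLC7A8, encoding LAT2, was higher in the resistant line of all 3 pairs. LNCaP and LNCaP-abl stood at 3.72 and 5.95 scaled FPKM, VCaP and VCaP-CR at 0.568 and 2.15, LAPC4 and LAPC4-CR at 1.12 and 6.31. These are log2 changes of 0.56, 1.01 and 1.79 (mean 1.12 ± 0.62, SD, n = 3 pairs). The states overlapped, since VCaP-CR stayed below LNCaP. Of all tested genes, 15.1% were higher by any amount in all 3 pairs.

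SLC3A2, the shared heavy chain, had the same sign as SLC7A5 in each pair. SLC43A2, which works without a heavy chain, had these signs too (log2 changes of 0.19, -0.71 and -1.42), the first within counting error. For VCaP the sign of SLC7A5 rested on 37 and 34 reads (ratio 0.560, counting interval 0.341 to 0.918). The share of all tested genes with these signs was not counted. The heavy chain stood at 28.3 scaled FPKM in LNCaP against 43.4 in its resistant counterpart. VCaP and VCaP-CR had 13.7 and 9.72, LAPC4 and LAPC4-CR 99.7 and 27.1. LAPC4 was the high library, both VCaP lines were low, and the states overlapped. The log2 changes were 0.60, -0.45 and -1.84, the last at the 1.18th percentile of tested genes. The size differed, however: in the LNCaP pair SLC7A5 was 25.7-fold and SLC3A2 1.54-fold higher.

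One RefSeq window of each of these partners is shown because their changes had the same sign in all 3 pairs. The changes of SLC43A2 had these signs too, and its windows, not shown, held 0 of the 3 motifs. Capitals mark TGACNNNGC.
SLC7A5 chr16:87869478-87869757, minus strand: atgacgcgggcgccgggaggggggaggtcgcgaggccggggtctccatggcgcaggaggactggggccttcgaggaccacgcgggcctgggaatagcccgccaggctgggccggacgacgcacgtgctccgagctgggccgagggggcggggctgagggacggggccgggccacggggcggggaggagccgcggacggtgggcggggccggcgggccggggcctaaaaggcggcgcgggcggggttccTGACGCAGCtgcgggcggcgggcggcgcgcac
SLC3A2 chr11:62881449-62881728, plus strand: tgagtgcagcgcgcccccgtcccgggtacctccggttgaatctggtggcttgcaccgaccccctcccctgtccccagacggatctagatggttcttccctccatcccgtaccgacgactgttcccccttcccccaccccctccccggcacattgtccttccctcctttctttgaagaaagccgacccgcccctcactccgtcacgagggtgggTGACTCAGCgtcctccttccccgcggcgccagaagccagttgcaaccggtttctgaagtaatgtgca
The match begins 2 bases before the start in SLC7A5 and 37 bases before it in SLC3A2. The SLC3A2 window also held TGATGNAA on the other strand, 37 bases past the start and outside the stretch shown. The other 2 SLC3A2 windows held 0 of the 3 motifs.

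Set side by side, the LAT-type carriers changed places differently in each line. Their summed level was 30.7 scaled FPKM in LNCaP and 42.5 in LNCaP-abl. SLC43A1 made up 57.4% of that sum in LNCaP and 0.507% in LNCaP-abl, while SLC7A5 made up 3.38% and 62.8%. In the VCaP pair the sum was 20.3 and 12.3, and the SLC43 carriers led in both: SLC43A1 had 40.9% and 29.2% and SLC43A2 52.3% and 49.6%. In the LAPC4 pair the sum was 36.6 and 18.4. SLC7A5 led there in both states, with 56.6% and 48.7%, while SLC7A8 went from 3.06% to 34.4% and SLC43A1 from 15.98% to 2.11%. The ratio of SLC43A1 to SLC7A5 was 17.0 in LNCaP, 10.0 in VCaP and 0.282 in LAPC4, and 0.00807, 7.77 and 0.0432 in the resistant counterparts.

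**Figure D2:**
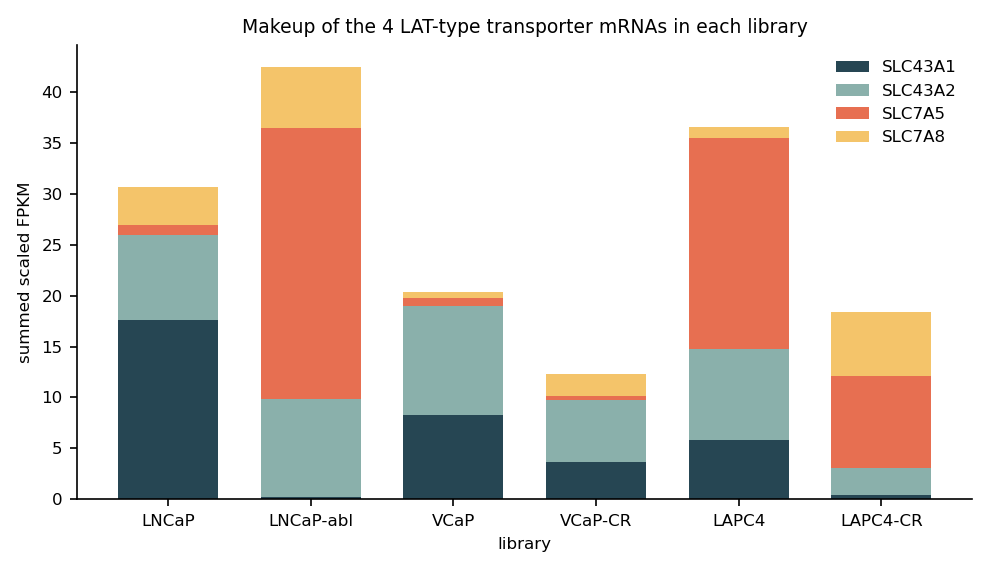
Scaled FPKM of SLC43A1, SLC43A2, SLC7A5 and SLC7A8 stacked in each of the 6 libraries. SLC43A1 is the largest part in LNCaP (57.4%) and SLC7A5 in LNCaP-abl (62.8%); in VCaP and VCaP-CR the 2 SLC43 genes lead.

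SLC7A11, the xCT light chain, stood at 26.9 and 38.9 scaled FPKM in LNCaP and LNCaP-abl, the high libraries, and at 3.95 and 6.87 in the VCaP lines. In the LAPC4 pair it went the other way, from 12.9 to 3.83, a log2 change of -1.53. An overlapping transcript, RP11-725C19.1, had 13 to 42 reads against 373 to 4431 for SLC7A11. Per unit of length, xCT made up 77.2% of the 6 light chains that pair with 4F2hc in LNCaP and 52.0% in LNCaP-abl, 47.1% and 55.6% in the VCaP pair, and 33.1% and 15.6% in the LAPC4 pair. The share was thus lower in 2 resistant lines and higher in VCaP-CR. The ratio of SLC3A2 to the sum of these light chains was 0.812, 1.63 and 2.56 in LNCaP, VCaP and LAPC4. It was lower in each resistant counterpart, at 0.582, 0.787 and 1.10.

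SLC1A5, encoding ASCT2, was the highest of the 10 members in 4 libraries: VCaP, VCaP-CR, LAPC4 and LAPC4-CR. Its level was 27.5 and 23.8 scaled FPKM in the LNCaP pair, 46.9 and 43.3 in the VCaP pair, and 107 and 53.5 in the LAPC4 pair. It was lower in all 3 resistant lines, but in the first 2 pairs by log2 changes of only -0.20 and -0.11. By comparison, 16.7% of all tested genes were lower by any amount in all 3 pairs. SLC1A4, encoding ASCT1, was at 4.33 and 2.73 in the LNCaP pair, 3.46 and 6.30 in the VCaP pair, and 13.6 and 12.5 in the LAPC4 pair. The LAPC4 lines were thus the high ones for both ASCT genes, whatever the state.

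SLC38A1, encoding SNAT1, varied least of the 10, from 19.2 scaled FPKM in LNCaP to 43.8 in LAPC4-CR, a 2.28-fold range over the libraries. It was higher in all 3 resistant lines by log2 changes of 0.46, 0.56 and 0.14. SLC38A2, encoding SNAT2, which cells make more of when amino acids run short, was at 38.5 and 22.2 in the LNCaP pair, 15.9 and 28.6 in the VCaP pair, and 48.1 and 34.4 in the LAPC4 pair. Its log2 changes, -0.77, 0.81 and -0.47, had no common direction.

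**Figure D3:**
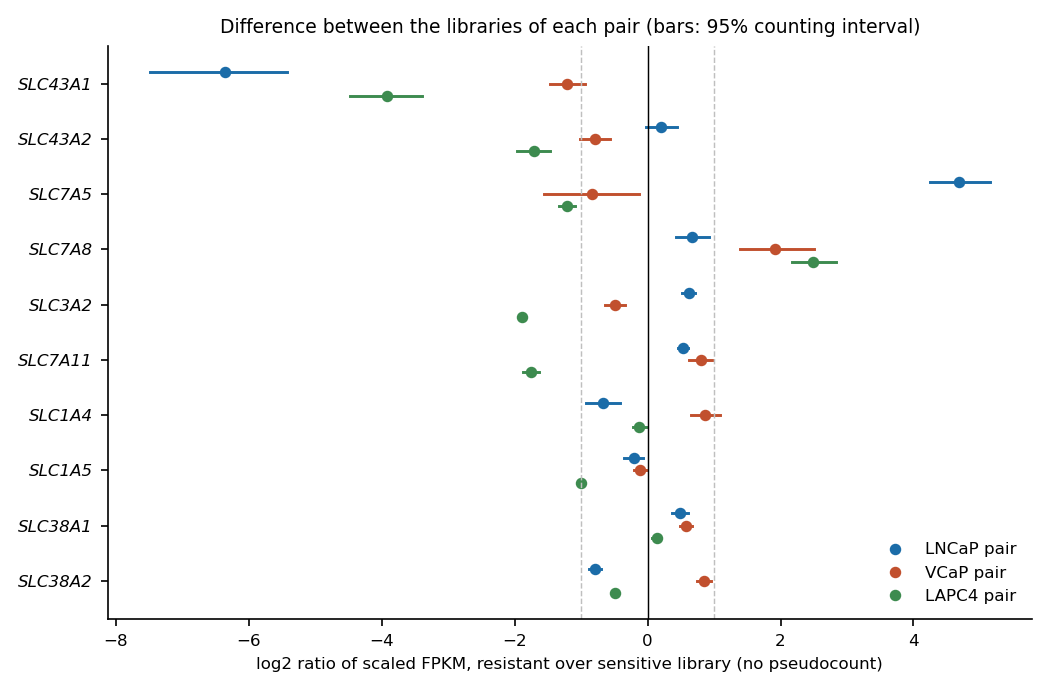
Log2 ratio of resistant over sensitive library for each transporter and pair, without a pseudocount, with 95% counting intervals; dashed lines mark 2-fold. The points of SLC43A1 are all left of the left dashed line, and those of SLC7A5 lie on both sides of 0.

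Counted over the members, 1 of 10 was at least 2-fold lower and 1 at least 2-fold higher in the LNCaP pair (SLC43A1 and SLC7A5), where 6.19% and 6.24% of all tested genes were. In the VCaP pair these were 1 and 1 (SLC43A1 and SLC7A8), beside 2.03% and 2.36%. Both were just past 2-fold: with the FPKM as deposited they were at -0.93 and 0.98, and with a pseudocount of 5 at -0.63 and 0.36, which leaves 0 and 0. In the LAPC4 pair 5 of 10 were at least 2-fold lower (SLC43A1, SLC43A2, SLC7A5, SLC3A2 and SLC7A11), beside 5.27% of all tested genes, and 1 was higher (SLC7A8), beside 5.24%. With a pseudocount of 5, SLC43A2 (-0.85), SLC7A5 (-0.88) and SLC7A8 (0.89) were short of 2-fold, which leaves 3 lower and 0 higher; with one of 0.25, SLC1A5 (-1.001) joined, giving 6 lower. By pair, in the order LNCaP, VCaP, LAPC4, the median change of the 10 was 0.33, 0.23 and -1.06, against -0.01, -0.01 and -0.02 over all tested genes.

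The genes whose levels over the 6 libraries were most like those of SLC43A1 were sought among 7222 coding genes with a range of at least 1 on the log2 scale. They were FKBP5 (Pearson's r 0.988), KLK3 (0.985), AP001816.1 (0.982), FKBP10 (0.975) and ADAM7 (0.969). The libraries come in pairs of related lines, and the r values are descriptions. FKBP5, a chaperone of steroid receptors, KLK3 and ADAM7 are on the list of androgen-regulated genes used below. FKBP5 was at 10.8, 7.03 and 6.39 scaled FPKM in LNCaP, VCaP and LAPC4 and at 2.44, 5.39 and 1.93 in their resistant counterparts. FKBP10, a collagen chaperone of the endoplasmic reticulum, had log2 changes of -4.33, -1.15 and -2.69, in the same order of pairs. SLC43A2 had an r of 0.486 with SLC43A1 and SLC7A5 one of -0.626.

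**Figure D4:**
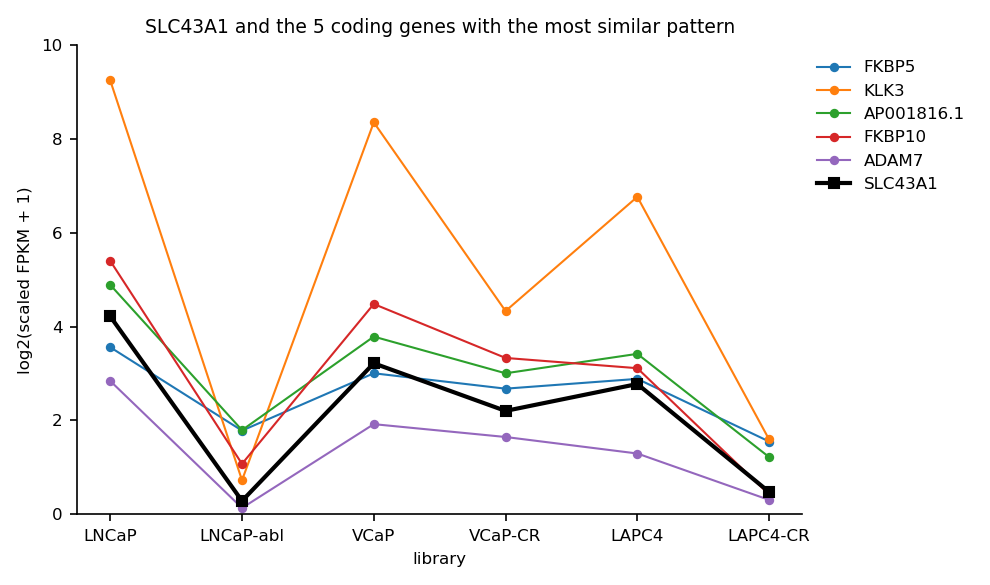
Log2(scaled FPKM + 1) of SLC43A1 (black squares) and the 5 coding genes most correlated with it across the 6 libraries; lines join the points of 1 gene. All 6 genes are lower in the resistant library of each pair, KLK3 by the most.

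The same search for SLC7A5 gave STARD3 (0.993), STX3 (0.991), NEK7 (0.987), MAPK3 (0.982) and PDZD8 (0.982). MAPK3, the kinase ERK1, was at 3.53 scaled FPKM in LNCaP and 8.87 in LNCaP-abl, 2.90 and 2.62 in the VCaP pair and 9.32 and 7.82 in the LAPC4 pair. Its range over the libraries was smaller than that of SLC7A5, and its highest library was LAPC4 where that of SLC7A5 was LNCaP-abl. SLC3A2 ranked 423rd of the 7222, with an r of 0.838.

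Differences between the parental lines were not used to choose the genes and were tested with edgeR, with state as a covariate, over the 2 libraries of each line. The 2 libraries of a line differ in state and are not repeat cultures. Over all tested genes, 2067 (12.7%) differed between lines at an adjusted p under 5%. Among the members 1 of 10 did, a share near that background. It was SLC1A4 (edgeR adjusted p 0.0483; 0.00151 to 0.133 over the 12 alternatives), with a mean log2 level of 2.16 in the LNCaP lines, 2.51 in the VCaP and 3.81 in the LAPC4 lines. Without the LAPC4 library the edgeR adjusted p was 0.133, without LAPC4-CR 0.0793, and with limma 0.0588.

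The edgeR adjusted p of the other 9 members was 0.056 for SLC1A5, 0.0592 for SLC7A11, 0.0777 for SLC7A8, 0.0845 for SLC3A2 and 0.128 for SLC7A5. It was 0.154 for SLC38A1, 0.317 for SLC43A1, 0.366 for SLC38A2 and 0.438 for SLC43A2. With DESeq2, which called 3975 of 16222 genes between lines, some of these passed too. They were SLC7A11 (DESeq2 adjusted p 0.000679), SLC1A5 (0.00486), SLC3A2 (0.00696) and SLC7A8 (0.00811). Of the 30 contrasts of a member between 2 lines, 1 passed in edgeR. SLC3A2 was higher in the LAPC4 than in the VCaP lines by a log2 difference of 2.32 (SE 0.59, edgeR adjusted p 0.0499). In that contrast 12.6% of all genes passed. Between the LNCaP and VCaP lines 5.95% of all genes passed and between the LNCaP and LAPC4 lines 3.07%, with 0 members in either. The call of SLC3A2 between the LAPC4 and VCaP lines did not hold in all 8 alternatives. Its log2 difference was 2.23 without VCaP, 2.38 without VCaP-CR, 1.18 without LAPC4 and 3.12 without LAPC4-CR.

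Other genes of amino acid transport and use were taken from 8 lists. Across the pairs, edgeR with the parental line as a block called 0 of 16222 genes between the states (0.0%; 728 higher and 548 lower at an unadjusted p under 0.05, 7.87% in all), and DESeq2 called 82 higher and 54 lower (0.838%). Thus 0 listed genes passed edgeR, and the values that follow describe 1 library per line and state. Over all tested genes, 15.1% were higher and 16.7% lower by any amount in all 3 pairs, the background for the counts of that kind in each list.

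Of 39 other amino acid transporters, 14 were tested, and 2 were higher and 2 lower in all 3 pairs. These shares were near those over all tested genes (15.1% and 16.7%). The list was named for the plasma membrane, but it also held lysosomal proteins such as SLC38A9 and SLC36A1. Changes are again listed for LNCaP, VCaP and LAPC4 in turn. SLC38A10 had log2 changes of 1.14, 0.25 and 0.27, and SLC38A9, a lysosomal arginine sensor for mTORC1, 0.91, 0.28 and 0.12. SLC16A10, the aromatic amino acid carrier TAT1, had -0.65, -0.21 and -1.27, and SLC38A7 -0.11, -0.23 and -0.20. The list's medians were 0.00, 0.10 and 0.06. The 7 tested of 9 mitochondrial amino acid carriers had medians of -0.03, -0.05 and -0.26. Of them, SLC25A38, the glycine carrier of heme synthesis, and SLC25A22, a glutamate carrier, were lower in all 3 pairs, by at most 0.78 and 0.40.

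Of 36 genes of leucine sensing and mTORC1, 35 were tested. Medians were 0.10, 0.05 and -0.22, and 7 were higher and 5 lower in all 3 pairs, beside 15.1% and 16.7% of all tested genes. EIF4EBP1, the translation repressor that mTORC1 inactivates, was at 103, 59.2 and 113 scaled FPKM in LNCaP, VCaP and LAPC4 and at 55.7, 37.8 and 53.5 in their resistant counterparts, and edgeR put the change at -0.86 on the log2 scale (SE 0.24, adjusted p 0.592). All 3 resistant libraries were below the sensitive ones. RRAGC, one of the Rag GTPases that bring mTORC1 to the lysosome, had log2 changes of 0.42, 0.39 and 0.42. C7orf59 (LAMTOR4) had -0.23, -0.42 and -0.34, and FLCN -0.17, -0.21 and -0.37.

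The amino acid response, in which scarcity raises ATF4 and with it SLC7A11, SLC3A2, SLC7A5 and other genes, was covered by 26 genes, all tested. In the LAPC4 pair 20 of 26 were lower in the resistant line, 10 of them at least 2-fold, with a median change of -0.92. Of all 16222 tested genes, 8379 were lower in that pair, and 5.27% at least 2-fold. In the LNCaP pair 3 and in the VCaP pair 1 were at least 2-fold lower, beside 6.19% and 2.03% of all tested genes, with medians of -0.30 and 0.11. ATF4 itself, named after its values were seen, was at 282 scaled FPKM in LAPC4 and 122 in LAPC4-CR, at 105 and 153 in the LNCaP pair and at 83.8 and 92.1 in the VCaP pair. TRIB3, a pseudokinase induced by ATF4, was lower in all 3 resistant lines, with log2 changes of -0.85, -1.34 and -0.98 (edgeR adjusted p 0.592, DESeq2 adjusted p 0.0458). ATF3 and SESN2, a leucine sensor, were lower in all 3 too, most in LAPC4-CR at -1.41 and -1.21. SHMT2, a mitochondrial serine enzyme, had -0.57, -0.46 and -0.21. In the LNCaP pair 11 genes of the list were higher and 15 lower, beside 7962 and 8249 of all tested genes. A link between this list and SLC7A5 was not tested.

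**Figure D5:**
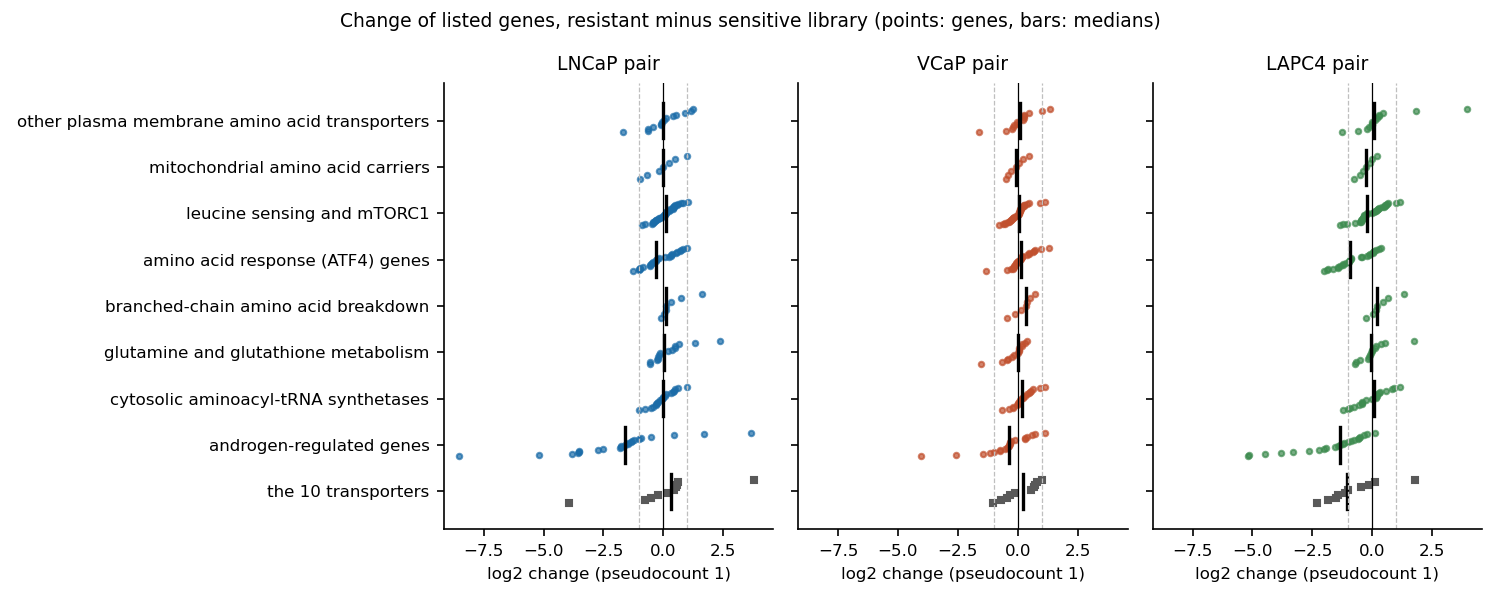
Log2 change of each tested gene of the 8 lists and of the 10 transporters, resistant minus sensitive library, in each pair; black bars are medians and dashed lines mark 2-fold. In the LAPC4 pair the medians of the amino acid response (-0.92), of the androgen-regulated genes (-1.34) and of the transporters (-1.06) lie left of the others.

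Breakdown of branched-chain amino acids was covered by 8 genes, of which 7 were tested, and 4 of the 7 were higher in all 3 pairs, beside 15.1% of all tested genes (medians 0.12, 0.36 and 0.22). Some of these changes were as small as 0.03. PPM1K, the phosphatase that switches the pathway on, had log2 changes of 0.74, 0.52 and 0.64 (edgeR adjusted p 0.592). BCKDHB and DBT, subunits of the dehydrogenase, had 0.12, 0.71 and 0.44, and 0.03, 0.39 and 0.22. BCAT1, the cytosolic aminotransferase, was at 0.604 scaled FPKM in LNCaP and 3.95 in LNCaP-abl, a log2 change of 1.62, and had 0.14 and 0.03 in the other pairs.

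The 14 genes of glutamine and glutathione metabolism had medians of 0.03, 0.03 and -0.03. GCLC, which starts glutathione synthesis from the cysteine that xCT supplies, was at 2.46 scaled FPKM in LNCaP and 17.0 in LNCaP-abl, with log2 changes of 0.17 and -0.17 in the other pairs. GPX4 was at 127 and 315 in the LNCaP pair, and GSR, glutathione reductase, at 89.7 and 300.4 in the LAPC4 pair. GGT1 had log2 changes of 0.49, -1.54 and -0.72. Of 20 cytosolic aminoacyl-tRNA synthetases, 2 were higher and 1 lower in all 3 pairs, with medians of -0.02, 0.17 and 0.08. KARS had 0.61, 0.23 and 0.29 and LARS, the leucine enzyme, -0.77, 1.13 and 1.16.

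Androgen-regulated genes numbered 24, of which 23 were tested. In all 3 pairs 14 of the 23 were lower and 0 higher, beside 16.7% of all tested genes lower and 15.1% higher, and 3 were at least 2-fold lower in all 3. Medians were -1.62, -0.35 and -1.34, the smallest in the VCaP pair. That pair also had the smallest share of all tested genes at least 2-fold lower, 2.03%. It was 6.19% in the LNCaP pair and 5.27% in the LAPC4 pair. A link of the list to SLC43A1 was not tested. With DESeq2, 7 of the 23 were called lower and 0 higher; with edgeR 0 were called. PMEPA1 had -3.81, -1.18 and -1.56 (DESeq2 adjusted p 0.0219), TRPM8 -1.02, -2.59 and -1.18 (1.06e-09) and KLK2 -5.19, -0.997 and -4.46 (0.0376). The list was assembled with results on several of these genes known and is not independent evidence of its direction.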

How the data were processed

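Per the labels' protocols, RNeasy was used for the RNA and a SOLiD Total RNA-Seq kit for the libraries. The submitters' processing notes name HTSeq and hg18; aligner, annotation and use of strand were not given in the sources used here, so values of overlapping genes and near-identical copies are uncertain. The deposited tables hold, per the file headers, a count and an FPKM for each of 51698 genes. The authors' FPKM was rebuilt within 1% from the count, the gene length and the summed counts for 100.0% of values. The LAPC4-CR table gives no length, and that of the other tables was used.

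Entries of small RNA classes, which the deposited class column names, were left out, with those whose symbol begins with MT- or MTRNR2L (8772 in all). They held 22.7% to 35.9% of the counts of a library, less in the resistant member of every pair. Entries sharing a symbol were summed, giving 42878 symbols. FPKM was scaled by the median ratio over 11591 genes that reached 1 FPKM in every library. Genes averaging 1 scaled FPKM or more (16222) were tested with edgeR 4.0.16 on the deposited counts (quasi-likelihood, TMM, R 4.3.3, Benjamini-Hochberg, 5%). Limma 3.58.1 and DESeq2 1.42.0 were alternatives. The edgeR fit was also run on simulated counts with the same dispersion for every gene and no state change that differed between lines. That run cannot show how the test behaves where state changes differ between lines. Changes use log2(scaled FPKM + 1), resistant minus sensitive. Intervals are exact 95% Poisson intervals for counts and exact (Clopper-Pearson) intervals for ratios of 2 counts.

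The replicate number of a library marks its parental line, known from the line names. Deviations from the group means correlated across genes at 0.464, 0.734 and 0.593 for libraries of the same line and at -0.478 to -0.06 otherwise. Nothing in the labels says that libraries came from separate cultures. With line and state both in the fit, p-values set a difference against how much the state change varied between the lines. No line has a repeat library in either state, so technical spread cannot be told apart from that variation.

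The 10 transporters and the lists were chosen with earlier results of these data known. All 10 members are named. From each list, up to 4 tested genes are named, first those changed the same way in all 3 pairs by their smallest change, then by edgeR p between states. For likeness, the 5 coding genes with the highest Pearson r are named. Promoter sequences are RefSeq's, on GRCh38.p14.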

Additional observations from a re-analysis of the deposited data

Results flagged for a closer look

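SLC7A5 was at least 2-fold higher in the resistant line of the LNCaP pair and at least 2-fold lower in that of the LAPC4 pair, which are opposite directions under the same comparison. Between the LNCaP and LAPC4 pairs the log2 changes were 4.89 apart. Each line has 1 library per state, so this difference between lines was not tested. With a pseudocount of 5 the change in the LAPC4 pair was -0.88, short of 2-fold, and that in the LNCaP pair was 2.39.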

How the results depend on the processing

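Small RNA classes kept in was an alternative added after the data were seen. For the states edgeR called 0 genes higher and 0 lower. Without a filter on low values it called 61 higher and 40 lower, and DESeq2 called 82 higher and 54 lower. With 1 pair left out, 0 to 13 were higher and 1 to 20 lower. Without the replicate block, edgeR also called 0 higher and 0 lower, and with 0 calls in both fits the calls cannot show what the pairing did. At an unadjusted edgeR p under 0.05, 249 were higher and 161 lower without the block, against 728 and 548 with it. Between all parental lines, 2067 genes became 4645 without a filter and 3975 in DESeq2, and 979 to 3902 with 1 library left out. LNCaP against VCaP gave 966, with 2423 without a filter, 2429 in DESeq2 and 327 to 1803 with 1 library left out. LNCaP against LAPC4 gave 498, with 1732, 1610 and 404 to 1108. VCaP against LAPC4 gave 2052, with 3518, 3310 and 550 to 3600. Genes at least 2-fold lower in all pairs numbered 16, against 35 with a pseudocount of 0.25, 5 with one of 5, 40 with small RNA classes kept and 47 to 138 with 1 pair left out. Those higher numbered 10, against 33, 3 and 47 to 110 with a pseudocount of 0.25, of 5 and with 1 pair left out. With fewer samples fewer pairs have to agree; the cause of the other shifts was not tested. Of 150 member changes under alternatives, 0 reversed and 29 moved beyond their counting interval, most with another pseudocount. Of 128 member tests between lines, 96 kept their side of 5%, 26 passed it only in the alternative and 6 passed it only as reported. Where a line kept 1 library, its spread is assumed to be that of the others. Among the members, the fewest reads were those of SLC43A1 in LNCaP-abl (9) and LAPC4-CR (34), SLC7A8 in VCaP (33) and SLC7A5 in VCaP, VCaP-CR and LNCaP (37, 34 and 44).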

Other observations

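Among transporters outside the 10, SLC7A2, a carrier of arginine and lysine named after its values were seen, went from 2.72 scaled FPKM in LAPC4 to 56.9 in LAPC4-CR. It was at 6.55 and 8.99 in the LNCaP pair and at 35.2 and 34.7 in the VCaP pair, so LAPC4 was the low library and the other resistant lines did not share the difference. SLC1A1, a glutamate and cysteine carrier also named after its values were seen, was at 2.97 in LNCaP and 0.254 in LNCaP-abl, at 0.716 and 3.40 in the VCaP pair and at 0.949 and 5.93 in the LAPC4 pair. SLC36A1, a lysosomal amino acid exporter chosen in the same way, was at 1.62 and 5.24 in the LNCaP pair and at 13.8 and 3.79 in the VCaP pair, and differed less in the LAPC4 pair, at 5.28 and 6.63. None of the 3 was called between the states by edgeR (0 of 14 tested genes of their list; 0 higher and 1 lower at an unadjusted p under 0.05, and 0 by DESeq2).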
